A study of Mus musculus with 30 samples.

Results

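The glycolytic enzymes described here were fixed as a list of 10 mouse genes: Hk1, Gpi1, Pfkl, Aldoa, Tpi1, Gapdh, Pgk1, Eno1, Pkm and Ldha. Their probe sets were found by the gene symbol of the platform annotation, and a probe set counted only where it carried that symbol alone. Of the 10 genes, 8 were found. Every one of these but Gapdh, 7 genes in all, had 11 ordinary probe sets, and all 11 passed the filter on low signals. The whole series had 15964 named genes on 36701 ordinary probe sets. Gapdh was represented by the 9 control probe sets of the arrays, a 5′, a middle and a 3′ set on each array type. No probe set carrying the symbol Eno1 or Gpi1 alone was found, so these genes were not analysed here.

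The series followed the mouse ovary before birth. Total RNA of pooled embryonic ovaries, taken with TRIzol from mice of a BL/6-129 background, was measured at 11.5, 12.5, 14.5, 16.5 and 18.5 days post coitum (dpc). Each age had 2 numbered samples, and each number was run on 3 Affymetrix arrays of different content (A, B and C), 30 arrays in all. The gonads of 11.5 and 12.5 dpc were sexed by PCR for Sry, per the labels. The RNA came from whole ovaries, so fewer cells of a type and less RNA per cell cannot be told apart. Whether the pair of samples at an age came from different pools is not stated. The p-values therefore measure only how far these samples differ, and that spread may be technical.

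Glycolysis splits glucose into pyruvate in the cytosol and yields ATP and NADH. Hexokinase traps glucose as its phosphate, phosphofructokinase commits it to the pathway, aldolase and triose phosphate isomerase turn it into triose phosphates, and Gapdh, phosphoglycerate kinase, phosphoglycerate mutase, enolase and pyruvate kinase carry these on to pyruvate. Lactate dehydrogenase then exchanges pyruvate and lactate and returns NAD+ to the Gapdh step. Most of these genes are active in nearly every cell, several are known targets of the hypoxia-inducible factors and of Myc, and in the adult ovary the granulosa cells are known to pass pyruvate to oocytes, which use little glucose themselves.

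The labelled tissue was checked against marker genes. The summed signal of 6 oocyte markers was 1900.5 and 2099.8 at 18.5 dpc, against 229 and 290.1 at 11.5 dpc, and that of 7 pregranulosa and supporting cell markers was 4362 and 4656 at 18.5 dpc, against 1741 and 2365 at 11.5 dpc. Amh, Cyp17a1 and Hsd17b3, which mark the testis, stayed under a signal of 50 on all arrays, while Sox9 (477 to 892) and Dhh (188 to 536), known markers of Sertoli cells, were above it in all samples, and the summed signal of the 6 Sertoli and Leydig cell markers was 1067 and 1076 at 18.5 dpc, against 1197 and 1519 at 11.5 dpc. Values are the authors' signal intensities, scaled to a common mean on each array. Probe sets differ in brightness and array types in scale, so a signal is compared only with the same probe set at other ages. A summed signal is compared only with the sum of the same probe sets at other ages, and the brightest sets weigh most in it. Several of these genes are known to have near-identical processed pseudogenes, and which copies the probes bind was not checked.

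The proximal promoters are shown for the 4 genes on which the results turn, each with a called fall over the course. For Ldha and Pkm, which had more than 1 window, the window with the most ACGTG is shown. They are RefSeq windows of the GRCm38.p6 build from 250 bases before to 50 bases after an annotated start, and capitals mark ACGTG on either strand (CACGT is its reverse complement, and CACGTG holds both and counts once on each strand). ACGTG is the core shared by hypoxia response elements and by many E-boxes. The Gapdh window lies at chr6:125165724-125166023 on the minus strand, the Pgk1 window at chrX:106186850-106187149, the Ldha window at chr7:46845554-46845853 and the Pkm window at chr9:59656977-59657276, these 3 on the plus strand.
Gapdh: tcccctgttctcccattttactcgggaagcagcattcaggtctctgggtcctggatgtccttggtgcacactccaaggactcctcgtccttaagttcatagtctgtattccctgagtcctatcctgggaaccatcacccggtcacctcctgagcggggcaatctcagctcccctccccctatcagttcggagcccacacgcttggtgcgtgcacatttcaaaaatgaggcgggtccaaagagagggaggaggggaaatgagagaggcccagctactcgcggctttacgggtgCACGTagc
Pgk1: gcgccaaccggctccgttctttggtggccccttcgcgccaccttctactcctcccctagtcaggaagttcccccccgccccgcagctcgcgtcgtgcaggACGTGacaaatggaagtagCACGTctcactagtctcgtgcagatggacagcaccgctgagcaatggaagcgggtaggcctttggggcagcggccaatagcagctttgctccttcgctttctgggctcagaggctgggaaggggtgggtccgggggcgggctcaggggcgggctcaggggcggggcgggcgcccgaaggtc
Ldha: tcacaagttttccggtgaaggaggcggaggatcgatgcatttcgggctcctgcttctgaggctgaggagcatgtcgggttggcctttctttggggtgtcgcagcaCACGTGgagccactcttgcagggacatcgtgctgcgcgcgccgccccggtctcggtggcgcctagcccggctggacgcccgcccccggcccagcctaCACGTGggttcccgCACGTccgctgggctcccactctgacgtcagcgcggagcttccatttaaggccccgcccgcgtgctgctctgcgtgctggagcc
Pkm: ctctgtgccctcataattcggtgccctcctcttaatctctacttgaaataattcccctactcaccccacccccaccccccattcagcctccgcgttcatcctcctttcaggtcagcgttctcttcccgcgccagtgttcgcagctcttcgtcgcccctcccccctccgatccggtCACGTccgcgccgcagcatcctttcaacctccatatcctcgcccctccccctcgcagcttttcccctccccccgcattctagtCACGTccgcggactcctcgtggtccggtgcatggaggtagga
The motif occurred 1 time in the Gapdh window, 2 times in the Pgk1 window, 5 times in this Ldha window and 2 times in this Pkm window, while the other Ldha window and the other Pkm window held none. All 10 listed genes had windows in the table, 17 in all, and 7 of these windows from 6 genes held the motif. Among all 32851 promoter windows of the same length 19.6% held ACGTG and 8.21% held it at least 2 times. The Ldha and Pkm windows shown were picked by this motif, so these shares are no yardstick for them. Aldoa held 1 match in each of 2 windows that overlap, so these may be the same site. Hk1 held 2 in 1 window. Neither gene was called. The windows of Tpi1, Pfkl, Eno1 and Gpi1 held no ACGTG. The form GCGTG, not marked in the sequences, was also counted. It occurred 2 times in the Gapdh window and in each window of Ldha and Eno1, 3 times in 1 Hk1 window and 1 time in the Pfkl window. The remaining windows held none. Among all windows 32.4% held GCGTG, and 43.8% held ACGTG or GCGTG.

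Over the whole course Gapdh, Pgk1, Pkm and Ldha had called falls, of 1.51-fold to 3.84-fold at 18.5 against 11.5 dpc, although 1 of the 2 Pgk1 probe sets (164545_f_at) and 1 of the 3 Pkm probe sets (162032_f_at) did not pass the test. Hk1, Pfkl, Aldoa and Tpi1 stayed within 0.24 of no change on the log2 scale, with adjusted p-values of 0.413 to 0.807. Of the 11 ordinary probe sets 4 were called in 18.5 against 11.5 dpc, all of them lower, where 14.5% of all 24825 tested probe sets were called, 6.87% were called lower and 7.59% higher. The 11 probe sets had a median log2 change of -0.58, against 0.02 over all tested probe sets. That median counts Pkm and Pgk1 more than once. With 1 probe set per gene, 3 of 7 genes were called, all lower, and the median was -0.18. Of all represented genes 17.5% were called and 8.37% were called lower, with a median of 0.02. Tests were made with limma on log2(signal + 16), and a call is an adjusted p under 0.05 over all tested probe sets. Fold changes are on that scale.

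The same 4 probe sets, Pgk1 93346_at, Ldha 96072_at and the Pkm sets 96066_s_at and 137220_f_at, were called by the F test over the 5 ages, where 14.4% of all probe sets were called. They were also called for a falling linear trend over age, where 20.7% of all probe sets were called and 10% for a fall. The count in 18.5 against 11.5 dpc rested on the 18.5 dpc samples: it was 1 of 11 without replicate 1 of 18.5 dpc, when Pkm 96066_s_at was the call kept, and 2 of 11 without replicate 2. The F test count was 2 of 11 when any one of 4 samples was left out: replicate 2 of 11.5 dpc, replicate 1 or 2 of 12.5 dpc, or replicate 1 of 18.5 dpc.

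**Figure D1:**
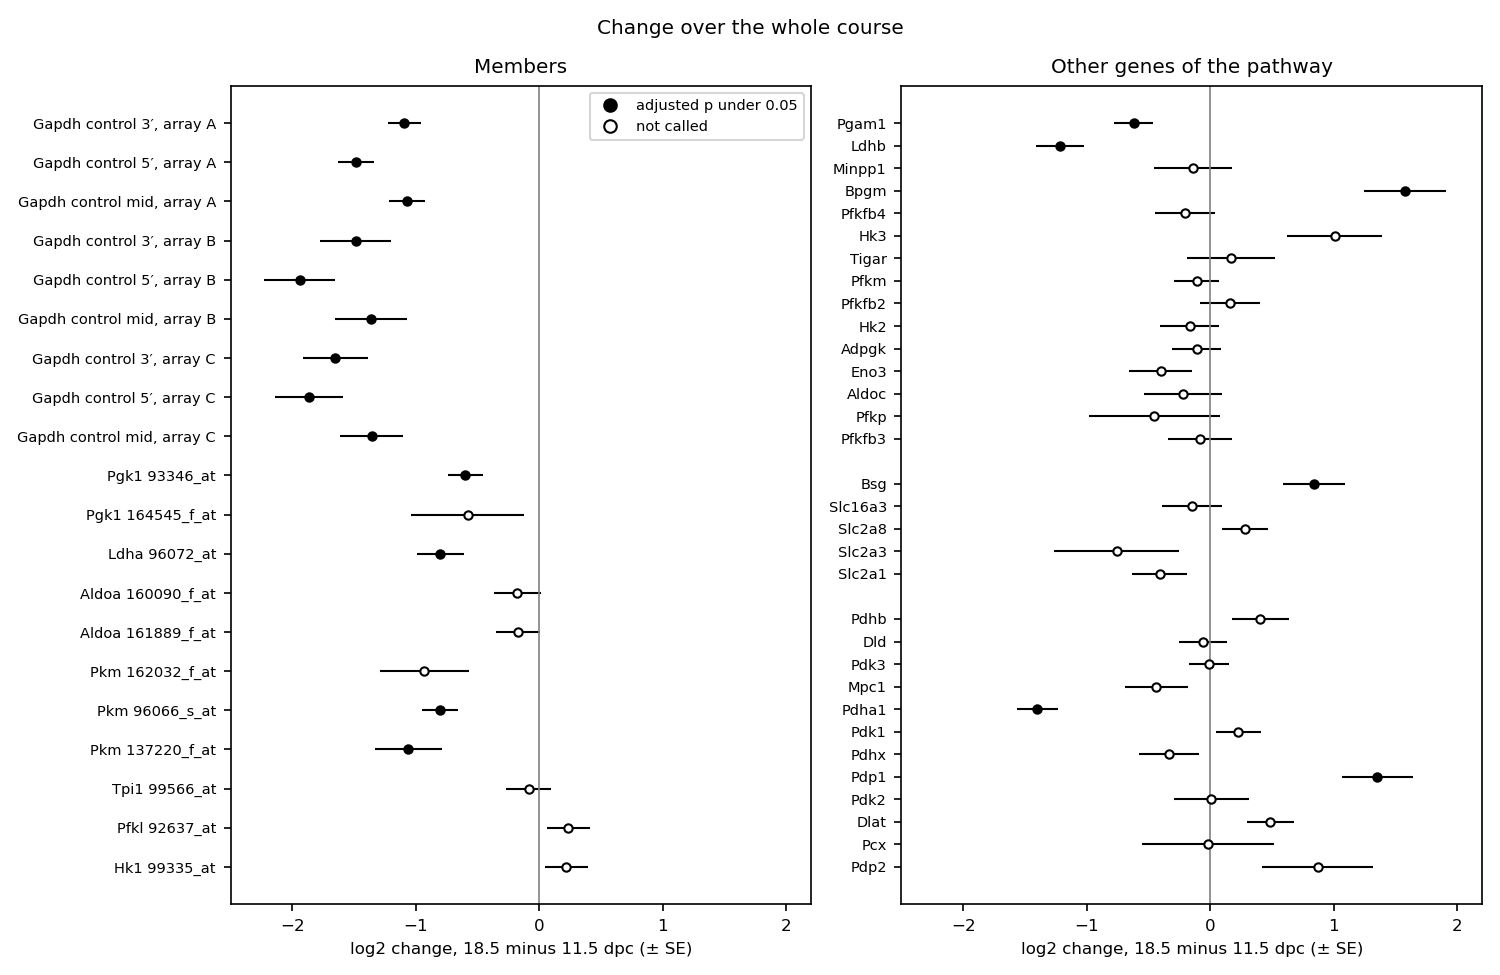
Change in log2(signal + 16) at 18.5 minus 11.5 dpc for the members (left, one row per probe set) and for other genes of the pathway (right, grouped as other glycolytic enzymes, transport, and pyruvate entry to mitochondria). Points are limma estimates, bars are 1 standard error, and filled points have an adjusted p under 0.05. All 9 Gapdh rows lie left of -1, and the rows of Aldoa, Tpi1, Pfkl and Hk1 lie near 0.

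Hk1, the hexokinase of most tissues, is bound to the outer membrane of mitochondria. Its probe set 99335_at had signals of 6034 and 4700.5 at 11.5 dpc, 5028 and 5013 at 12.5 dpc, 7794 and 6166 at 14.5 dpc, 5199 and 6594 at 16.5 dpc, with 6581 and 5843 at 18.5 dpc. Both samples of 14.5 dpc lay above both of 12.5 dpc, and the samples of 18.5 and 11.5 dpc overlapped. The change at 14.5 against 12.5 dpc was 0.46 ± 0.18 (SE) on the log2 scale with an adjusted p of 0.226, and that of 18.5 against 11.5 dpc was 0.22 ± 0.18 with 0.456.

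Pfkl, the liver-type subunit of phosphofructokinase, had a nearly level course. Its signals were 397 and 535 at 11.5 dpc, 459 and 475 at 12.5 dpc, 409 and 524 at 14.5 dpc, 472 and 490.2 at 16.5 dpc, with 547 and 544 at 18.5 dpc. Both samples of 18.5 dpc were above every other sample, the nearest being replicate 2 of 11.5 dpc. The log2 change of 18.5 against 11.5 dpc was 0.24 ± 0.17, which was not called (adjusted p = 0.413).

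Aldoa, the aldolase of muscle and most embryonic tissues, was measured by 2 probe sets of array A, both with the suffix f, which marks probe sets that can also bind related sequences. Probe set 160090_f_at had 1296 and 2063 at 11.5 dpc, 1703.5 and 1655 at 12.5 dpc, 1160.4 and 1348 at 14.5 dpc, 1309.5 and 1456 at 16.5 dpc, with 1458 and 1428 at 18.5 dpc. Probe set 161889_f_at had 1081 and 1047 at 11.5 dpc, 642 and 862 at 12.5 dpc, 679 and 898 at 14.5 dpc, 893 and 1032 at 16.5 dpc, with 939 and 944 at 18.5 dpc. The course of each differed: 160090_f_at was lowest at 14.5 dpc and 161889_f_at at 12.5 dpc, and their Pearson's r over the 10 samples was 0.15. In 18.5 against 11.5 dpc the log2 changes were -0.18 ± 0.19 (adjusted p = 0.593) and -0.17 ± 0.18 (adjusted p = 0.576), so neither was called. The sample pairs overlapped in the case of 160090_f_at, whose 11.5 dpc samples differed most, and not in 161889_f_at. Without replicate 1 of 11.5 dpc, 160090_f_at was called by the F test (adjusted p = 0.0372) and for a falling trend (adjusted p = 0.0223).

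Tpi1 encodes triose phosphate isomerase, which turns one product of aldolase into the other. Its signals were 1527 and 2162 at 11.5 dpc, 1573 and 1853 at 12.5 dpc, 1209 and 1513 at 14.5 dpc, 1617 and 1742 at 16.5 dpc, with 1687 and 1738 at 18.5 dpc. The 14.5 dpc samples were the lowest and did not overlap those of 12.5 or 16.5 dpc, but neither interval was called (adjusted p = 0.428 and 0.448). Between 18.5 and 11.5 dpc the log2 change was -0.09 ± 0.18 (adjusted p = 0.807), and both samples of 18.5 dpc lay between the 2 samples of 11.5 dpc.

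Gapdh, glyceraldehyde-3-phosphate dehydrogenase, makes the NADH of the pathway and is often used as a reference transcript. On array A its 3′ probe set had 5362 and 5736 at 11.5 dpc, 5859 and 5716 at 12.5 dpc, 4104 and 4237 at 14.5 dpc, 3743.5 and 3301.5 at 16.5 dpc, with 2554 and 2632.5 at 18.5 dpc. The samples of 11.5 and 12.5 dpc overlapped and every later age lay below all samples of the age before it. On array B the same set had 11111 and 14285 at 11.5 dpc, 13056 and 13528 at 12.5 dpc, 6633 and 9998 at 14.5 dpc, 7538 and 6319 at 16.5 dpc, with 4476 and 4485 at 18.5 dpc. On array C it had 27947.5 and 25442.5 at 11.5 dpc, 25982 and 25373 at 12.5 dpc, 13083 and 21327 at 14.5 dpc, 14559 and 11432 at 16.5 dpc, with 8095 and 8872 at 18.5 dpc. On these arrays the samples of 14.5 and 16.5 dpc overlapped, and replicate 2 of 14.5 dpc was the higher of its pair.

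The 9 Gapdh probe sets were added to the fit, giving 24834 tested probe sets. All 9 were called lower in 18.5 against 11.5 dpc, where 14.5% were called and 6.91% were called lower, with log2 changes of -1.94 to -1.07 and adjusted p-values of 4.92e-05 to 0.00698. All 9 were called by the F test (14.4% of all). They were also all called for a trend, each falling, with slopes of -0.29 to -0.16 log2 per day. A trend in either direction was called for 20.8% of all, and in the fit without the Gapdh sets 10% were called for a fall. In 14.5 against 12.5 dpc 2 of the 9 were called, where 1.67% of all were: the 5′ set (log2 change -0.68 ± 0.14, adjusted p = 0.037) and the middle set (-0.65 ± 0.15, adjusted p = 0.0491) of array A. None of the 9 was called in the other 3 intervals, where the log2 changes lay between -0.07 and 0.08 at 12.5 against 11.5 dpc, between -0.57 and -0.10 at 16.5 against 14.5 dpc, and between -0.80 and -0.25 at 18.5 against 16.5 dpc. The lowest adjusted p-values of these 3 intervals were 0.89, 0.342 and 0.0797. Without replicate 1 of 18.5 dpc the count in 18.5 against 11.5 dpc was 6 of 9. The 9 probe sets measure 1 transcript and are not independent.

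The 5′ probe set of Gapdh had a larger estimated fall than the 3′ set on each array, a difference that was not tested. The middle set had the smallest estimated fall on each array, with log2 changes of -1.07 ± 0.15 on A, -1.36 ± 0.29 on B and -1.36 ± 0.25 on C. The standard errors of the middle and 3′ sets overlapped on each array, and the order of the 3 sets was not tested. On array A the log2 changes of 18.5 against 11.5 dpc were -1.48 ± 0.14 for the 5′ set and -1.09 ± 0.13 for the 3′ set, on array B -1.94 ± 0.29 and -1.49 ± 0.29, and on array C -1.87 ± 0.28 and -1.65 ± 0.27. The mean 3′ to 5′ signal ratio of the 3 arrays was 1.08 and 1.05 at 18.5 dpc, against 0.845 and 0.829 at 11.5 dpc. This ratio is a usual measure of RNA quality and labelling, and its part in the fall was not tested. The sense-strand Gapdh control sets, which should not bind the labelled RNA, had signals of 35.4 to 863 on all arrays.

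**Figure D2:**
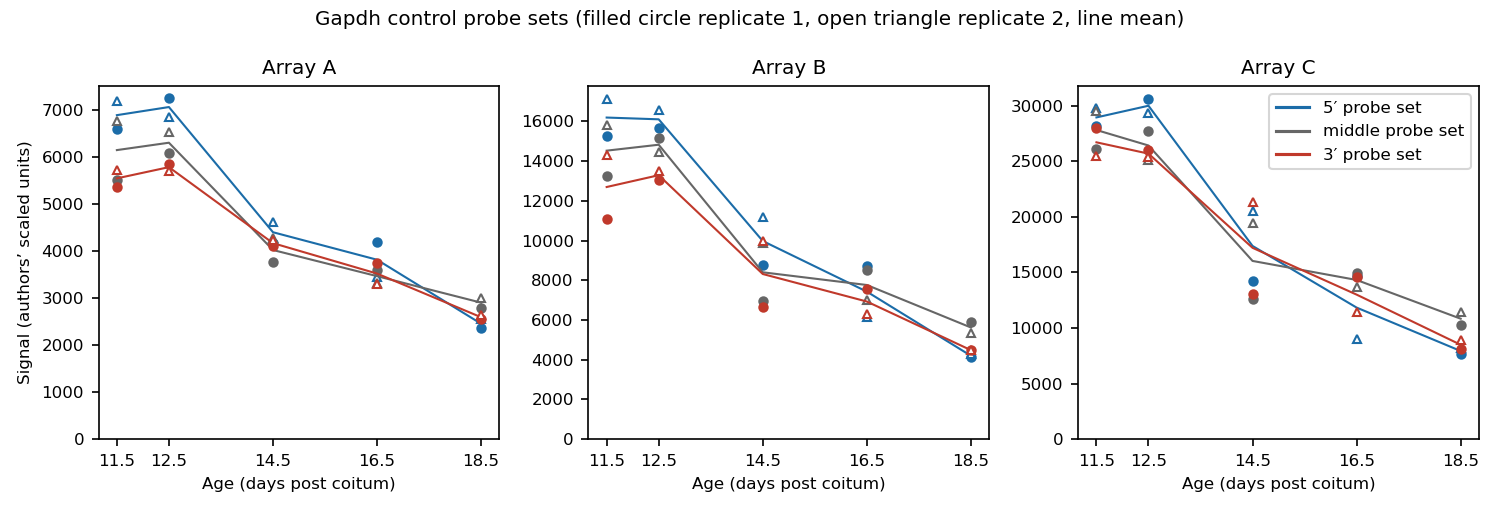
Signal of the Gapdh control probe sets (authors' scaled units) against age in days post coitum, in 1 panel per array type. Filled circles are replicate 1, open triangles replicate 2, and lines join the means of 2 samples. For each probe set the samples of 18.5 dpc are the lowest, and the 5′ set starts above the middle and 3′ sets on average and ends below them.

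Pgk1, phosphoglycerate kinase, makes the first ATP of the pathway and lies on the X chromosome. Its probe set 93346_at on array A had 1318.5 and 1371.5 at 11.5 dpc, 1030.5 and 1035 at 12.5 dpc, 884 and 864.5 at 14.5 dpc, 621 and 764 at 16.5 dpc, with 919 and 848 at 18.5 dpc. Each age up to 16.5 dpc lay below the age before it without overlap, and both samples of 18.5 dpc were above those of 16.5 dpc. Pgk1 fell 1.51-fold in 18.5 against 11.5 dpc (log2 change -0.60 ± 0.14, adjusted p = 0.0162), and its trend was -0.092 ± 0.018 log2 per day (adjusted p = 0.00329). The later difference, 0.35 ± 0.14 at 18.5 against 16.5 dpc, was not called (adjusted p = 0.322). The whole-course call was lost without replicate 1 or replicate 2 of 18.5 dpc (adjusted p = 0.0842 and 0.142), and under quantile normalization its adjusted p was 0.04999, just under the threshold.

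A second Pgk1 probe set, 164545_f_at on array B, was dim, with 52.7 and 39.2 at 11.5 dpc, 14.8 and 12.6 at 12.5 dpc, 14.8 and 25.8 at 14.5 dpc, 25 and 50 at 16.5 dpc, with 26.4 and 24 at 18.5 dpc. Its 11.5 dpc samples were above those of 12.5, 14.5 and 18.5 dpc and overlapped those of 16.5 dpc. Its log2 change of 18.5 against 11.5 dpc was -0.58 ± 0.46 (adjusted p = 0.442). Its lowest mean was that of 12.5 dpc, and its trend over age was not called (adjusted p = 0.962).

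Pkm, the muscle-type pyruvate kinase gene whose 2 splice forms are known as M1 and M2, makes pyruvate and the last ATP of the pathway. Probe set 96066_s_at on array A had 2576 and 2679 at 11.5 dpc, 2487 and 2127 at 12.5 dpc, 1478 and 1754 at 14.5 dpc, 1334 and 1329 at 16.5 dpc, with 1449 and 1542 at 18.5 dpc. The ages up to 16.5 dpc stepped down without overlap, most between 12.5 and 14.5 dpc, where the log2 change was -0.51 ± 0.14 (adjusted p = 0.105). It fell 1.75-fold in 18.5 against 11.5 dpc (log2 change -0.81 ± 0.14, adjusted p = 0.00307) and stayed called in all 15 alternative settings.

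Probe set 137220_f_at on array C had 634 and 774.5 at 11.5 dpc, 803 and 639 at 12.5 dpc, 438 and 617 at 14.5 dpc, 413 and 379 at 16.5 dpc, with 258 and 415 at 18.5 dpc. The samples of 11.5 and 12.5 dpc overlapped, and the lowest mean was that of 18.5 dpc, whose samples overlapped those of 16.5 dpc. The fall in 18.5 against 11.5 dpc was 2.09-fold (log2 change -1.06 ± 0.27, adjusted p = 0.0209). It was lost without replicate 2 of 11.5 dpc (adjusted p = 0.0967) and without replicate 1 of 18.5 dpc (0.192). Its F test call (adjusted p = 0.0404) was lost in 9 of 15 alternative settings, among them no filter on low signals (0.0713) and median centring (0.0502).

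The last Pkm probe set, 162032_f_at on array A, was the most variable within ages. It had 1286 and 1461.5 at 11.5 dpc, 1291 and 669 at 12.5 dpc, 475 and 887 at 14.5 dpc, 542.5 and 976 at 16.5 dpc, with 886 and 570.5 at 18.5 dpc. Both samples of 18.5 dpc were below both of 11.5 dpc, but the log2 change of -0.93 ± 0.36 was not called (adjusted p = 0.105). Its limma trend over age, -0.114 ± 0.044 log2 per day, was not called either (adjusted p = 0.0899). The probe sets were not assigned to a splice form.

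Ldha, the lactate dehydrogenase subunit that predominates in tissues making lactate, had its main step at the start of the course. Its signals were 1816.5 and 1715 at 11.5 dpc, 1236 and 1092 at 12.5 dpc, 981 and 1037 at 14.5 dpc, 752 and 1201 at 16.5 dpc, with 1021 and 988 at 18.5 dpc. Both samples of 11.5 dpc were above every later sample, and the ages from 14.5 dpc on overlapped. Ldha fell 1.75-fold in 18.5 against 11.5 dpc (log2 change -0.80 ± 0.19, adjusted p = 0.0146). The first interval alone, 12.5 against 11.5 dpc, gave -0.60 ± 0.19 and was not called (adjusted p = 0.233). The F test call of Ldha (adjusted p = 0.0304) was lost in 8 of 15 alternative settings, and the whole-course call in 3, each of which left out a sample of 11.5 or 18.5 dpc.

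**Figure D3:**
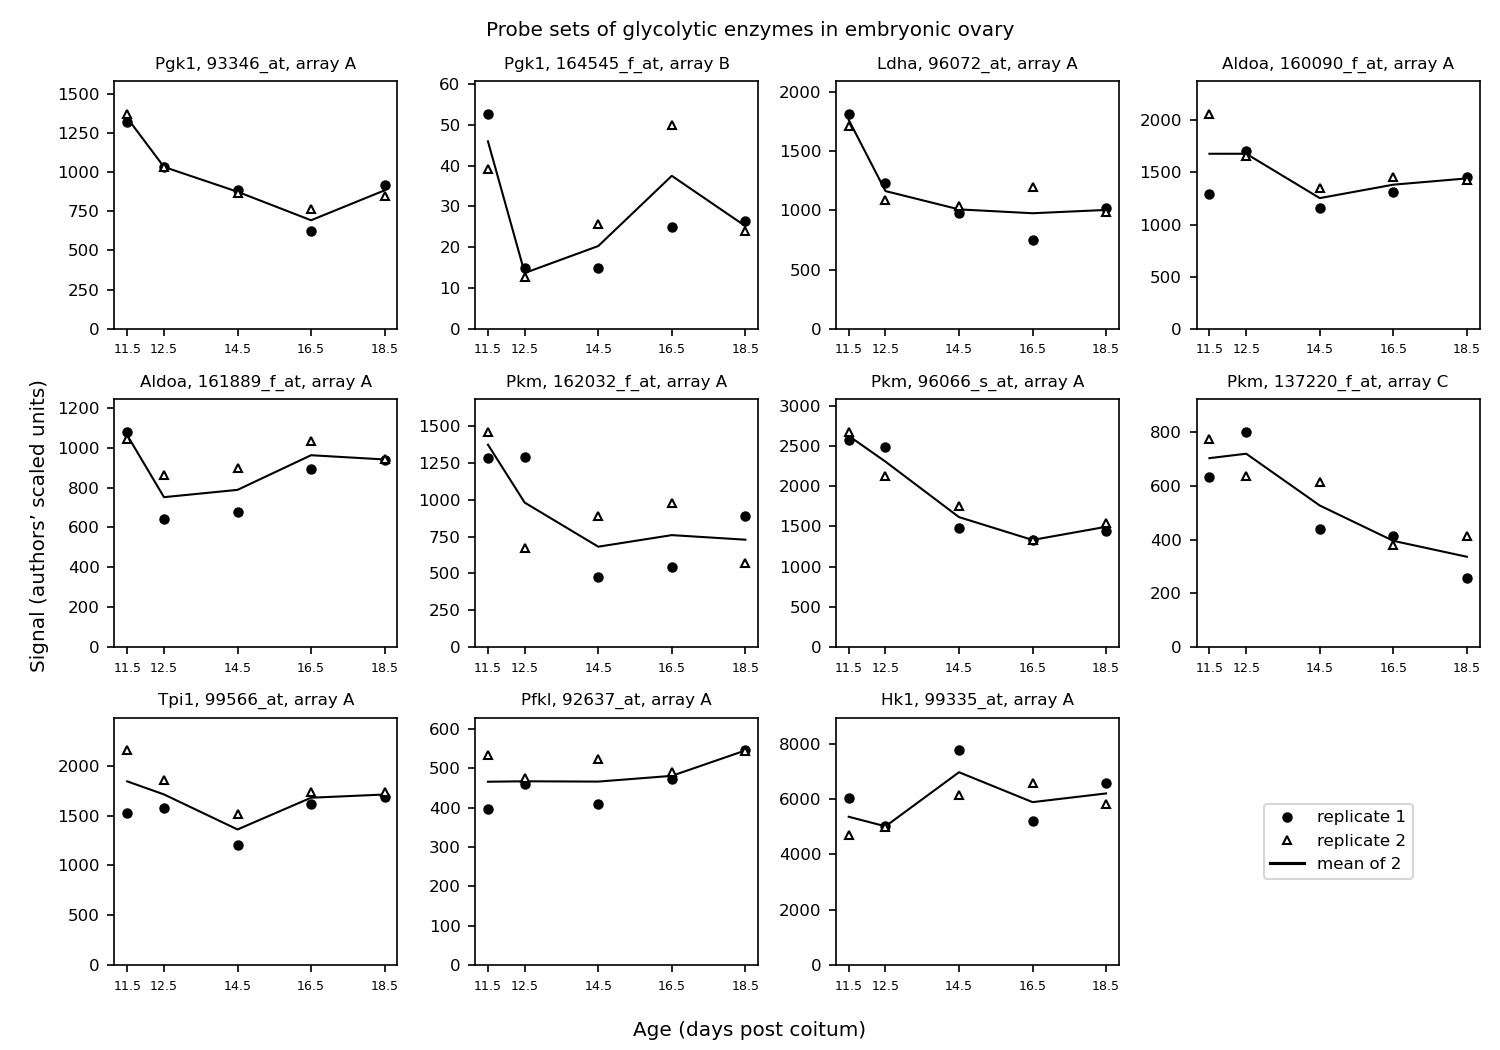
Signal (authors' scaled units, each axis from 0) against age in days post coitum for the 11 ordinary probe sets of the members, 1 panel per probe set. Filled circles are replicate 1, open triangles replicate 2, and lines join the means of 2 samples. In Pgk1 93346_at, Ldha, Pkm 96066_s_at and Aldoa 161889_f_at, which was not called, both samples of 11.5 dpc are above every later sample. All panels but Pkm 137220_f_at, Pfkl and Hk1 have their highest mean at 11.5 dpc.

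None of the 11 ordinary probe sets was called by limma in any interval. The unadjusted p was under 0.05 for 4 of them in 12.5 against 11.5 dpc, 3 in 14.5 against 12.5 dpc, 1 in 16.5 against 14.5 dpc and 1 in 18.5 against 16.5 dpc, where 12.4%, 14.9%, 15.6% and 13.1% of all probe sets had such a p. Over all probe sets 0.226%, 1.66%, 0.689% and 0.624% were called after adjustment in these intervals, in the same order. The estimate was below 0 for 8 of 11 in the first interval, 8 in the second, 5 in the third and 4 in the last, where 48.6%, 51.4%, 49.8% and 50.7% of all probe sets were below 0, and the median log2 change was -0.19, -0.24, 0.05 and 0.06.

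The ordinary array A members with a called fall had correlated signals over the samples. Genes picked for a shared fall with age tend to correlate over such samples, so the values add no support. Gapdh was not included. Over the 10 samples of array A Pearson's r was 0.90 between Pgk1 93346_at and Ldha, 0.89 between Pgk1 and Pkm 96066_s_at, and 0.80 between Ldha and Pkm 96066_s_at. Aldoa 160090_f_at and Tpi1, which were not called, had an r of 0.84 with each other and of 0.52 and 0.31 with Pgk1. Hk1 had a negative r with all 8 other probe sets of array A, down to -0.77 with Aldoa 160090_f_at. These values share arrays and the scaling of each array, and the 10 points fall into 5 ages, so they are a description only. The mean standardised level of the 9 probe sets of array A stood at 0.43 and 1.14 for 11.5 dpc, 0.02 and 0.05 at 12.5 dpc, -0.85 and -0.07 at 14.5 dpc, -0.80 and 0.07 at 16.5 dpc, with 0.12 and -0.11 at 18.5 dpc.

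Outside the lists, the genes of array A with the course most like this mean profile over the 10 samples were Nucks1 (Pearson's r 0.90), Wsb2 (0.88), Dsg2 (0.87), Rrp1 (0.87) and Pkig (0.87). The genes least like it were Zfp1 (-0.90), Pex14 (-0.89) and Pdlim4 (-0.89). None of these 8 genes was called by the F test, with adjusted p-values of 0.0653 for Pdlim4 to 0.492 for Rrp1.

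The other glycolytic enzymes and isoforms gave a mixed picture. Of 25 genes listed 21 were on the arrays and 15 were tested. In 18.5 against 11.5 dpc 2 of the 15 were called lower and 1 higher, with a median log2 change of -0.14, where 8.37% of all 12589 represented genes were called lower and 9.14% higher, 17.5% in all, with a median of 0.02. The 3 calls of 15 are 20%, near that share. The 2 that fell were the phosphoglycerate mutase Pgam1 and the lactate dehydrogenase subunit Ldhb, and the 1 that rose was Bpgm, the bisphosphoglycerate mutase with which red blood cells set the oxygen affinity of haemoglobin.

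Ldhb, the subunit that predominates in oxidative tissues such as the heart, had 1185 and 1232 at 11.5 dpc, 1270 and 1184 at 12.5 dpc, 663 and 411 at 14.5 dpc, 573 and 586 at 16.5 dpc, with 484.5 and 538 at 18.5 dpc. Every sample from 14.5 dpc on was below every sample of 11.5 and 12.5 dpc. It fell 2.33-fold in 18.5 against 11.5 dpc (log2 change -1.22 ± 0.19, adjusted p = 0.00144), and its step at 14.5 against 12.5 dpc was called by itself (-1.21 ± 0.19, adjusted p = 0.00723), an interval in which Ldha changed by -0.20 ± 0.19 (adjusted p = 0.7). Pgam1 had 1126 and 1150 at 11.5 dpc, 742 and 808 at 12.5 dpc, 666 and 889.8 at 14.5 dpc, 642 and 682 at 16.5 dpc, with 748 and 723 at 18.5 dpc, so both samples of 11.5 dpc were above all others, as for Ldha. It fell 1.54-fold in 18.5 against 11.5 dpc (log2 change -0.62 ± 0.16, adjusted p = 0.021).

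Bpgm averaged 630.4 ± 95.3 at 18.5 dpc and 221 ± 140 at 11.5 dpc (SD, n = 2 each) on array B and rose 2.98-fold (log2 change 1.58 ± 0.33, adjusted p = 0.00704). Its second probe set, on array A, rose too (1.44 ± 0.26, adjusted p = 0.00343). The summed signal of 10 red blood cell markers was 24407 and 24932 at 18.5 dpc, against 16497 and 18095 at 11.5 dpc, with 3 of the 10 called higher and 3 lower, and its part in the change of Bpgm was not tested. Tigar, which lowers flux through the pathway, was called by the F test (adjusted p = 0.0168), with its lowest mean at 16.5 dpc and its highest at 12.5 dpc, and Hk3 was called for a rising trend (adjusted p = 0.0287). The isoforms Hk2, Pfkm, Pfkp, Eno3 and Aldoc had log2 changes of -0.45 to -0.11 in 18.5 against 11.5 dpc, none of them called (adjusted p = 0.33 to 0.748). The germ cell isoforms of the testis, Pgk2, Ldhc and Gapdhs, were below the signal of 50 in all samples and were not tested, although Ldhc had 39.4 and 8.5 at 18.5 dpc, against 0.8 and 2 at 11.5 dpc.

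**Figure D4:**
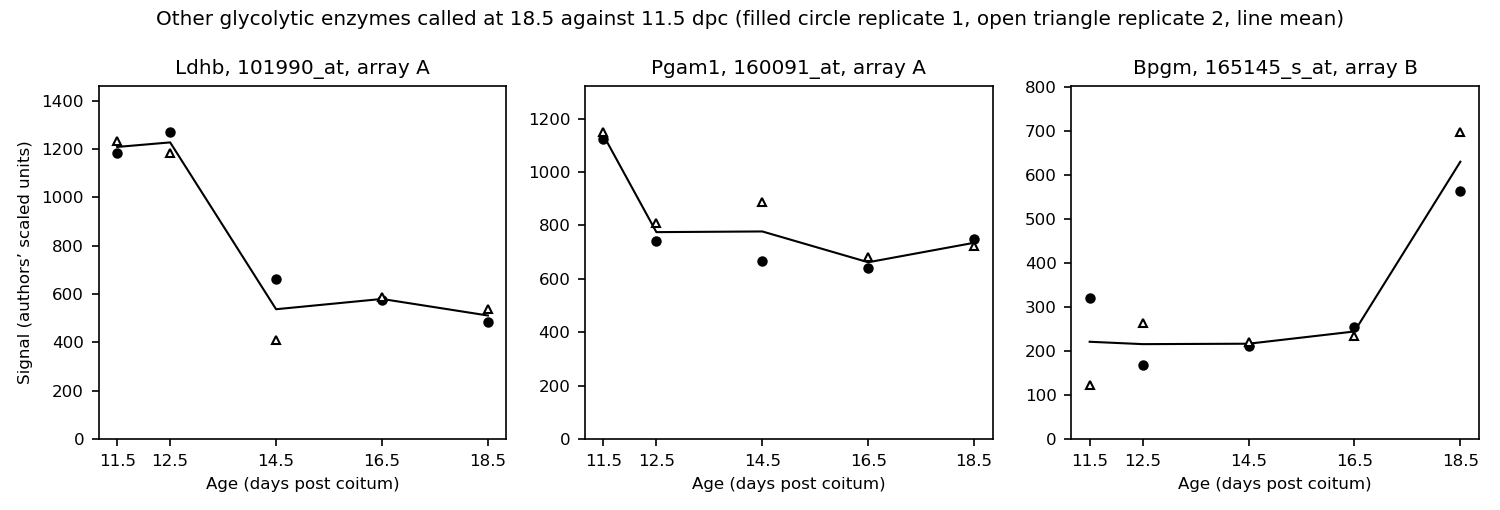
Signal (authors' scaled units, each axis from 0) against age in days post coitum for Ldhb, Pgam1 and Bpgm, the 3 other glycolytic enzymes called in 18.5 against 11.5 dpc. Filled circles are replicate 1, open triangles replicate 2, and lines join the means of 2 samples. Ldhb is low from 14.5 dpc on, Pgam1 is highest at 11.5 dpc, and Bpgm is highest at 18.5 dpc.

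Of the genes that feed or drain the pathway, 1 of 5 was called for transport, 2 of 12 for pyruvate entry to mitochondria, 3 of 15 for the citric acid cycle, 2 of 7 for the pentose phosphate pathway and 0 of 3 for gluconeogenesis in 18.5 against 11.5 dpc. The shares were 20%, 16.7%, 20%, 28.6% and 0% in that order, beside 17.5% of all represented genes. Of 5 tested genes of glucose and lactate transport only Bsg was called in 18.5 against 11.5 dpc, the chaperone of the lactate carriers, at 1626 ± 56.7 at 18.5 dpc and 949 ± 422 at 11.5 dpc (log2 change 0.84 ± 0.25, adjusted p = 0.0413). Of the 11.5 dpc samples, replicate 1 had 650.1 and replicate 2 had 1247. The glucose carriers Slc2a1 and Slc2a3 had log2 changes of -0.41 ± 0.22 and -0.76 ± 0.51 and the lactate exporter Slc16a3 -0.15 ± 0.25, none of them called, and the lactate carrier Slc16a1 stayed under 50 and was not tested. Of 12 tested genes of pyruvate entry to mitochondria, Pdha1 fell and Pdp1 rose. Pdha1, the X-linked subunit of pyruvate dehydrogenase that is switched off by phosphorylation, had 412 and 404 at 11.5 dpc, 408 and 393 at 12.5 dpc, 331 and 312 at 14.5 dpc, 247 and 214 at 16.5 dpc, with 168 and 125 at 18.5 dpc. It fell 2.64-fold in 18.5 against 11.5 dpc (log2 change -1.40 ± 0.17, adjusted p = 0.000228). Pdp1, the phosphatase that switches pyruvate dehydrogenase on, averaged 216 ± 38.5 at 18.5 dpc and 77.0 ± 31.6 at 11.5 dpc (log2 change 1.35 ± 0.29, adjusted p = 0.00674). Pdk1, a kinase of the same enzyme and a known target of hypoxia-inducible factor, was called by the F test (adjusted p = 0.0475), with its lowest mean at 14.5 dpc, and not in 18.5 against 11.5 dpc (adjusted p = 0.44).

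In the citric acid cycle 15 genes were tested, of which Idh3b (log2 change -1.22 ± 0.22, adjusted p = 0.00336) and Sdhd (-0.75 ± 0.16, 0.00806) fell and Sdhc rose (0.58 ± 0.16, 0.0301) in 18.5 against 11.5 dpc. In the pentose phosphate pathway 7 were tested, of which the transketolase Tkt fell (-0.60 ± 0.15, 0.0201) and the isomerase Rpia rose (0.87 ± 0.18, 0.00754). The 3 tested genes of gluconeogenesis were not called in this comparison, the lowest adjusted p being 0.0574 for G6pc3 (0.64 ± 0.21), which was called for a rising trend (adjusted p = 0.0328). The median log2 change was -0.01 in the citric acid cycle and 0.01 in the pentose phosphate pathway.

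Of 18 tested hypoxia regulators and targets outside glycolysis, 4 (22.2%) were called higher in 18.5 against 11.5 dpc, where 9.14% of all represented genes were, and none lower, where 8.37% were. Their median log2 change was 0.00, with 9 estimates above 0 and 9 below. Those that rose were Ndrg1 (1.38 ± 0.21, adjusted p = 0.00114), Egln2 (0.89 ± 0.16, 0.00309), Higd1a (0.86 ± 0.23, 0.0248) and Ddit4 (0.90 ± 0.27, 0.0433). The Higd1a call came from array B. Its other tested probe set, on array A, did not rise. That set had 146 and 100.8 at 11.5 dpc, with 116.5 and 109.8 at 18.5 dpc. The other tested Ndrg1 probe set was higher at 18.5 dpc (139.2 and 110.5) than at 11.5 dpc (73.4 and 90.4). Hif1a, the oxygen-regulated subunit, averaged 1295 ± 40.1 at 18.5 dpc and 1416.5 ± 60.0 at 11.5 dpc (SD, n = 2 each), a log2 change of -0.13 ± 0.14 that was not called (adjusted p = 0.597).

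Several gene groups other than the metabolic ones also held many calls over the same comparison, in both directions. Of all represented genes 8.37% were called lower and 9.14% higher. Of 18 tested proliferation genes 12 (66.7%) were called lower and 1, Bub1, higher in 18.5 against 11.5 dpc, with a median log2 change of -0.92. Top2a, the topoisomerase of dividing cells, averaged 134.5 ± 0.424 at 18.5 dpc and 497 ± 68.9 at 11.5 dpc (SD, n = 2 each). Among 7 endothelial markers 3 of 6 tested were called lower and none higher, Tek stayed under 50, and the summed signal was 342 and 382 at 18.5 dpc, against 755 and 784 at 11.5 dpc. Of the germ cell markers 5 of 8 tested were called higher and 1, Pou5f1, lower, with a median log2 change of 1.60. All 5 tested oocyte markers, 5 of 7 pregranulosa and supporting cell markers, 5 of 8 stromal markers and all 5 tested surface epithelium markers were called higher, with medians of 3.06, 2.78, 1.04 and 1.74. Other marker groups held fewer calls: 0 of 5 tested for macrophages, 0 of 2 for Sertoli and Leydig cells, 1 of 4 for smooth muscle and 2 of 5 for skeletal muscle. The part of cell division or of cell composition in the fall of Gapdh, Pgk1, Pkm and Ldha was not tested.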

How the data were processed

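Each deposited file gives the signal intensity of every probe set, which the authors scaled to a mean of 125 on each array, per the labels. With 2% of the values trimmed from both ends, array means were 125.02 to 125.08. The software, the background correction and any detection calls are not given in the sources used here. Whether the A, B and C arrays of a number received the same RNA is not stated, so each type was fitted on its own.

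Of 36701 ordinary probe sets 29131 had 1 symbol in the platform annotation, 724 several and 6846 none, and only those with 1 were named. Signals were analysed as log2(signal + 16), for probe sets reaching 50 on at least 2 of 10 arrays of a type (7494 on A, 9103 on B and 8228 on C). For each array type, limma 3.58.1 (R 4.3.3) fitted 1 model of the 5 age groups (lmFit, eBayes with an intensity trend, 5 residual degrees of freedom). Benjamini-Hochberg adjustment ran over the 3 types together. The script was tested on simulated data. The number of arrays limits the precision.

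Members and lists were chosen with earlier results of these data known. All member probe sets are named, called or not. In other lists the tested probe set of highest mean log2 signal represents a gene, and called genes (up to 6 per list) and a fixed set of isoforms, carriers and regulators are named. Alternatives were a pseudocount of 1, no filter on low signals, median centring, quantile normalization, the sample number as a block, and leaving out each of the 10 samples. Adding the Gapdh controls was chosen after the data were seen. No scan dates or other batches were given.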

Additional observations from a re-analysis of the deposited data

How the results depend on the processing

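The number of member probe sets called stayed between 3 and 4 by the F test, at 4 in 18.5 against 11.5 dpc and at 4 for the trend under another pseudocount, no filter, median centring, quantile normalization and the replicate block. Leaving out 1 sample gave 2 to 4 by the F test, 1 to 4 in 18.5 against 11.5 dpc, 3 to 5 for the trend (3 without replicate 1 of 18.5 dpc, 5 without replicate 1 of 11.5 dpc) and 0 in every interval. Over all probe sets the calls in 12.5 against 11.5 dpc went down to 6 with no filter and to 32 under quantile normalization or the block, against 56. In 16.5 against 14.5 dpc they were 101 with no filter, against 171, and in 18.5 against 16.5 dpc 88 with a pseudocount of 1, against 155. The Gapdh sets called in 18.5 against 11.5 dpc were 8 of 9 with no filter and without replicate 2 of 18.5 dpc. The sample numbers do not pair the samples: over 30 pairs of same-numbered samples the correlation of deviations from the age means was -0.16 to 0.22 and exceeded 0.1 in 1. With the number as a block the counts of members called were 4 by the F test, 4 in 18.5 against 11.5 dpc and 4 for the trend, and 0 in each interval. The median change of all probe sets was 0.02, -0.05 and -0.01 on the log2 scale with the authors' scaling, median centring and quantile normalization, and no called member changed direction. With 2 samples per age, some calls depended on single samples: those of Pgk1, Ldha and Pkm on array C in 18.5 against 11.5 dpc, those of Ldha and Pkm on array C by the F test, and that of Ldha for the trend. The F test and trend calls of Pgk1 and the trend call of Pkm on array C held in 15 of 15 alternative settings.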
